A study of Mus musculus with 6 samples.

Results

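Imprinted growth-control genes are 10 genes that each cell normally reads from the copy of a single parent and that act on growth: Ndn, Peg3, Igf2, Dlk1 and Plagl1, known as read from the paternal copy, and H19, Igf2r, Meg3, Rian and Grb10, known as read mainly from the maternal copy in most tissues. They were taken by symbol from a deposited table of 24091 genes, and all 10 were found. Of these, 9 had enough counts to be tested among 13413 genes, and Plagl1 did not. The libraries are RNA-seq of mouse hematopoietic stem cells, labelled as wild type. These are the marrow cells from which all blood cells descend, and the sort took cells with c-Kit, Sca-1 and CD150 but without CD48 or lineage markers. The aged group has 3 libraries (aged 1 to 3) from animals of 20 months, and the young group has 3 (young 4 to 6) from animals of 2 months; no treatment is named. The design text gives pools of 4 aged and 30 young mice without saying whether per sample or per group, and p-values therefore speak only for the variation of these pools, part of which may be technical.

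Imprinted genes carry methylation marks, laid down in egg or sperm, that silence the copy from the mother or from the father. Many of them form clusters in which a noncoding RNA and a protein gene are read from opposite parental copies, as H19 with Igf2 or Meg3 with Dlk1. In mouse blood stem cells, the maternal copy of H19 and the Dlk1-Meg3 cluster are known for holding back growth signals through Igf1r and the PI3K-mTOR pathway, and Ndn is known for restraining entry into the cell cycle. The counts do not tell the parental copies apart, so the data bear on levels of RNA and not on imprinting itself.

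The libraries held between 16452829 (young 4) and 21918658 (young 6) counts. Of the sort markers, Kit, which encodes c-Kit, ranged from 862 to 1033 CPM (a gene's counts per 1000000 counts of its library, scaled between libraries by TMM) in aged and from 320 to 868 CPM in young libraries, and Cd48, which the gate excludes, from 0.511 to 2.54 CPM in aged and from 8.59 to 14.5 CPM in young libraries. Young 4 stood apart from the other young libraries: its Pearson correlation with young 5 and young 6 was 0.951 and 0.948, against 0.989 between those libraries, all on log2 CPM over genes, which are no independent replicates. Its TMM factor was 0.765, against 1.04 to 1.08 in all other libraries, and this lower factor raises every CPM given for young 4. In aged 2, 20918 genes had a count, while the other libraries had 16084 to 17057 such genes. The summed CPM of 13 stromal and bone markers ran from 16.1 to 31.0 in aged libraries and was 9.38, 13.5 and 84.0 in young 4, 5 and 6, where the collagen gene Col1a1 alone gave 43.1 CPM in young 6. Among the 13, Cxcl12 was called lower in aged cells, Lepr and Pdgfrb were at higher values in every aged library than in every young one, Bglap was at 0 in all aged libraries, and none was at 0 throughout.

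Aged stem cells had more RNA of Ndn, the single gene of the 10 that passed the test. Meg3 was at a similar difference but missed the threshold, H19 was at lower values in every aged library than in every young one, and Dlk1 and Igf2, their neighbours read from the opposite parental copy, overlapped between the ages. Of the 9 tested genes, edgeR's quasi-likelihood test, with a threshold of 0.05 on the adjusted p, called 1 higher and 0 lower, where 5.76% of all tested genes were called (4.26% higher, 1.5% lower). Before adjustment, 2 of the 9 had p under 0.05 and were higher (Ndn and Meg3) and 1 was lower (H19), where 25.1% of all tested genes met this rule (13.9% higher, 11.1% lower). The same 3 genes, 2 higher and 1 lower, had aged and young values that did not overlap, as did 36.6% of all tested genes (19% higher, 17.6% lower). DESeq2, which gave all 10 an adjusted p, called 2 higher and 0 lower, where it called 12.9% of 14635 genes with an adjusted p (7.58% higher, 5.36% lower). Each of these counts rests on 1 to 3 genes, and the group as a whole did not stand out by them. The median log2 fold change of the 9 was 0.46, and that of all tested genes was 0.04.

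**Figure D1:**
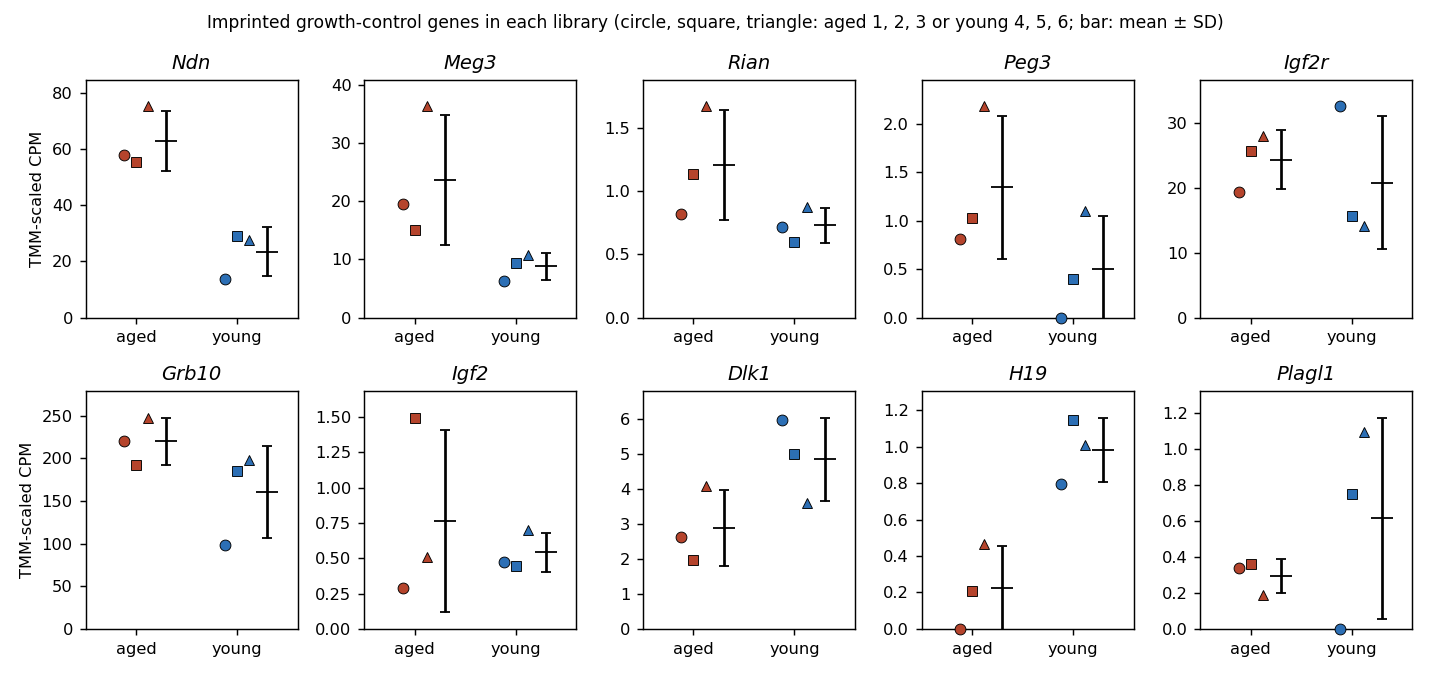
TMM-scaled CPM (y axis, linear from 0, a scale of its own per panel) of the 10 genes in the 3 aged and 3 young libraries; each symbol is a library and the bar gives mean ± SD, cut at 0. Ndn lies at 55.6 to 75.4 CPM in aged and at 13.6 to 29.2 CPM in young libraries, and H19 at 0 to 0.464 CPM in aged and at 0.795 to 1.15 CPM in young libraries.

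Ndn encodes necdin, a growth suppressor of the MAGE family that binds E2F and p53 proteins. The gene lies on mm10 chromosome 7, 62348277 to 62349927, plus strand, and no other gene of the table overlaps it. Its level was 58.1, 55.6 and 75.4 CPM in aged 1, 2 and 3, against 13.6, 29.2 and 27.7 CPM in young 4, 5 and 6. All aged libraries lay above all young ones, and young 4 was the lowest. Ndn rose 2.67-fold in aged cells (log2 fold change 1.42 ± 0.31 SE, 95% interval 0.69 to 2.14; edgeR's adjusted p = 0.0454), with means of 63.0 ± 10.8 in aged and 23.5 ± 8.63 CPM in young cells (SD, n = 3 each). This call was close to the threshold. It was lost without any of aged 1, aged 2, aged 3, young 5 or young 6 (adjusted p from 0.0909 to 0.166), where the fold ran from 2.41 to 3.03, and it was kept without young 4 (2.18-fold, adjusted p = 0.0244) and without both young 4 and aged 2 (2.29-fold, adjusted p = 0.0393).

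Like Ndn, the summed levels of endothelial and of stem cell markers were higher in every aged library than in every young one. The summed CPM of 11 endothelial markers was 340, 233 and 297 in aged 1, 2 and 3, against 150, 194 and 204 in young 4, 5 and 6, without overlap and with none at 0 throughout, and Cldn5, an endothelial junction gene, was called higher. The rise did not run through the list: of its 9 tested genes, 5 had a positive and 4 a negative log2 fold change. Of the sum, Tie1 gave 61.9 to 155 CPM in aged and 33.8 to 68.0 CPM in young libraries, and overlapped. Cdh5, which encodes VE-cadherin and defines the type, was at 0.0464 to 0.258 CPM in aged and at 0.159 to 1.27 CPM in young libraries. Genes of red blood cells were likewise higher in every aged library: Hbb-bs was at 17.5, 35.2 and 43.0 CPM in aged 1, 2 and 3, against 3.26, 11.9 and 1.88 CPM in young 4, 5 and 6, and Hba-a2 and the heme enzyme gene Alas2 did not overlap either. The whole erythroid list of 7 genes overlapped, at 96.9 to 116 CPM in aged and 44.8 to 133 CPM in young libraries, with 0 called by edgeR and, before adjustment, 3 higher and 1 lower at p under 0.05. The lymphoid list of 8 genes went the other way without overlap, at 1.11 to 1.81 CPM in aged and 2.23 to 3.99 CPM in young libraries. The summed CPM of 11 macrophage and neutrophil markers overlapped, at 296 to 336 CPM in aged and 270 to 345 CPM in young libraries. Of it, Lyz2 alone gave 277 to 316 CPM in aged and 247 to 313 CPM in young libraries. Among the 8 tested, 6 had a negative log2 fold change, where 47.3% of all tested genes did, and 0 were called by edgeR. C1qb, C1qc and Vcam1 were lower without overlap and 0 were higher, where 17.6% and 19% of all tested genes were. A list of 12 genes used to tell stem cells from progenitors summed to 2734 to 3336 CPM in aged and 1459 to 2535 CPM in young libraries. It had 5 genes called higher (Ly6a, Procr, Fgd5, Hoxb5 and Mecom) and 3 called lower, which were Cd34, Flt3 and Cd48, markers of more mature progenitors. The part of these genes in the difference of Ndn was not tested. In these bulk samples, more cells with a transcript and more of it per cell cannot be told apart.

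The start region of Ndn is shown because this is the gene that was called. It covers 250 bases before and 50 bases after the start of transcription in RefSeq (GRCm38.p6, chr7:62348027-62348326, plus strand), with capitals marking the CG pairs on which DNA methylation acts.
Ndn: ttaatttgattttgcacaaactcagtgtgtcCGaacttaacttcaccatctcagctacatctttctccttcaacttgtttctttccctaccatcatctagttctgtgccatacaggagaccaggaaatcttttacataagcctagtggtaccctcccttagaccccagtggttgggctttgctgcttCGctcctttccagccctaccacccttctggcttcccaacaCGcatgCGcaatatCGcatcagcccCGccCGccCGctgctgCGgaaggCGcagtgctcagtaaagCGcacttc
The window held 11 CG pairs, where the median of 32817 such windows was 7. Most of them lay close to the start, on both sides of it.

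Meg3, a noncoding RNA gene of the maternal copy (chromosome 12, 109540996 to 109571729, plus strand), is known as a tumour suppressor RNA and as the first unit of a long transcript with Rian and Mirg. It was at 19.6, 15.1 and 36.4 CPM in aged 1, 2 and 3, against 6.28, 9.47 and 10.7 CPM in young 4, 5 and 6. The groups did not overlap, and aged 3 was the highest by a wide margin. Means were 23.7 ± 11.2 in aged and 8.81 ± 2.28 CPM in young cells (SD, n = 3 each), a fitted difference of 1.42 ± 0.38 (log2, SE; 95% interval 0.53 to 2.31) with an adjusted p of 0.0753 by edgeR. DESeq2 called it (adjusted p = 0.00727) and limma-voom did not (0.0903). With single libraries left out, the adjusted p by edgeR ran from 0.102 to 0.228 and the log2 difference from 0.97 (without aged 3) to 1.64.

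Rian, the next noncoding gene downstream (109603945 to 109661711, plus strand) and host of many small nucleolar RNAs, had low counts. It was at 0.815, 1.14 and 1.67 CPM in aged 1, 2 and 3, against 0.716, 0.598 and 0.877 CPM in young 4, 5 and 6. Aged 1 lay within the range of the young libraries. The log2 difference was 0.72 ± 0.41 SE with an interval from -0.24 to 1.68 (adjusted p = 0.306), which neither excludes 0 nor a difference as large as that of Meg3. Counts of Rian are uncertain, since 8 other genes of the table, miRNA hairpins among them, lie within its interval on the same strand. Mirg, farther downstream, was at 0.296 ± 0.161 CPM in aged and at 0.0166 ± 0.0288 CPM in young libraries and was not tested.

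Dlk1 encodes a Notch-related membrane protein of immature cells and is the protein gene of the same cluster, upstream of Meg3 (109452823 to 109463336, plus strand). It was at 2.64, 1.96 and 4.09 CPM in aged 1, 2 and 3, against 5.96, 4.98 and 3.59 CPM in young 4, 5 and 6. Aged 3 lay above young 6, so the groups overlapped. The log2 difference was -0.73 ± 0.36 SE, with an interval from -1.57 to 0.11 (adjusted p = 0.247).

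Set against each other within a library, which needs no scaling between libraries, Meg3 and Dlk1 counts gave values that lay apart between the ages. The log2 ratio of Meg3 to Dlk1 counts was 2.89, 2.95 and 3.16 in aged 1, 2 and 3, against 0.07, 0.93 and 1.57 in young 4, 5 and 6. The aged and young libraries did not overlap. The difference was 2.14, and 1.75 without young 4, which was the lowest. The log2 ratio of Meg3 to Rian counts differed less and overlapped between groups (4.26 ± 0.46 in aged and 3.58 ± 0.43 in young libraries, SD, n = 3 each). In all, 5 such ratios were computed. They were chosen after the values of the genes were seen and are a description, with no test.

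**Figure D2:**
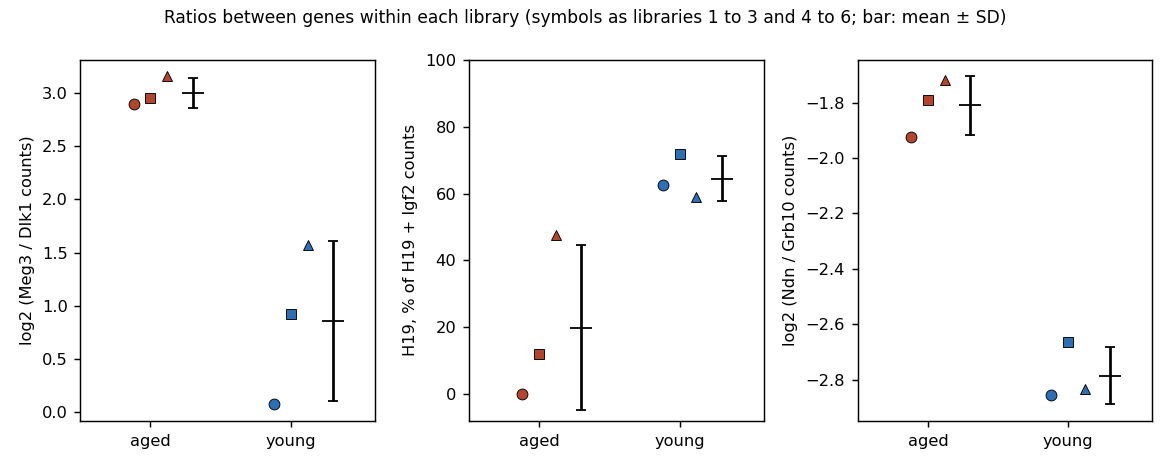
Ratios between genes within each library, free of scaling between libraries: log2 of Meg3 over Dlk1 counts, H19 as a percentage of H19 plus Igf2 counts, and log2 of Ndn over Grb10 counts (y axes) for 3 aged and 3 young libraries, with bars for mean ± SD. In each panel the aged and young symbols do not overlap, and the y axes of the log2 panels do not start at 0. Of the 5 ratios computed, Meg3 over Rian and Airn over Igf2r overlapped between the ages and are not drawn.

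The start regions of Meg3 and Dlk1 (RefSeq, GRCm38.p6, chr12:109540746-109541045 and chr12:109452573-109452872, both plus strand) are shown because these genes share a cluster and had log2 differences on opposite sides of 0. Capitals mark CG pairs as above.
Meg3: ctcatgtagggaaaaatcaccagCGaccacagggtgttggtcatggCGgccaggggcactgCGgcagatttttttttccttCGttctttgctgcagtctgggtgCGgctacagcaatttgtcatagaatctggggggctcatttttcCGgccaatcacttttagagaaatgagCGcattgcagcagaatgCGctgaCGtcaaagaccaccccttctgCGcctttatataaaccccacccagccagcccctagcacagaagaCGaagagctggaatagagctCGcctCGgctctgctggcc
Dlk1: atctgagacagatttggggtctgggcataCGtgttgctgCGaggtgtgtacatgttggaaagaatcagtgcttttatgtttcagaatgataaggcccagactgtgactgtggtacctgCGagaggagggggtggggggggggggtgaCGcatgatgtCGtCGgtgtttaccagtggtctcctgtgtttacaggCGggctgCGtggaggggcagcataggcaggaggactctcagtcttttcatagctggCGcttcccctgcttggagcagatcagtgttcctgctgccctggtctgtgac
The Meg3 window shown held 13 CG pairs and the Dlk1 window held 9. Another RefSeq window of Meg3 (chr12:109545148-109545447, plus strand), not shown, held 1 CG pair and neither of the motifs given below. The letters TGACGTCA, the motif known for CREB proteins and the same on both strands, began 57 bases before the start of Meg3 in the window shown and were absent from the Dlk1 window. They occurred in 1.79% of all windows and, among 14 windows of 9 of the 10 genes, also in that of Peg3. GGGGCCCC, the motif known for the protein of Plagl1 and also the same on both strands, occurred in 1.07% of all windows and in 1 of the 14, again that of Peg3. The first motif was picked after the sequences were read.

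H19 is a noncoding RNA gene of the maternal copy (chromosome 7, 142575530 to 142578146, minus strand) and shares enhancers with Igf2, which lies beside it (142650768 to 142666816, minus strand). H19 had 0, 4 and 10 counts in aged 1, 2 and 3, against 10, 23 and 23 counts in young 4, 5 and 6. In CPM these were 0, 0.206 and 0.464 in aged libraries, against 0.795, 1.15 and 1.01 in young ones; the 0 of aged 1 allows up to 0.144 CPM, at 3 counts. The groups did not overlap, and all counts were low. The log2 difference was -2.11 ± 0.80 SE, with an interval from -3.98 to -0.23 (adjusted p = 0.163 by edgeR), and it was -1.53 without aged 1 and -3.22 without aged 3. With single libraries left out, its adjusted p ran from 0.159 to 0.288.

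H19 also holds the hairpin of miR-675, which is known in mouse to act on Igf1r. Its mature arms are shown with their seeds (bases 2 to 8) in capitals, as the small RNA that goes with the H19 transcript.
mmu-miR-675-5p: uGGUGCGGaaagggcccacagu
mmu-miR-675-3p: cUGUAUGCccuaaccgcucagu
The row of this hairpin had 0 counts over all libraries, which are not of a kind made to capture mature miRNAs. In all, 13 mature miRNAs of RefSeq lay inside H19, Igf2, Meg3 and Rian, with 13 distinct seeds, and their levels were not measured here.

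Igf2 encodes a fetal growth factor that signals through Igf1r and the insulin receptor. It had 6, 29 and 11 counts in aged 1, 2 and 3, against 6, 9 and 16 counts in young 4, 5 and 6, or 0.288, 1.50 and 0.511 CPM in aged against 0.477, 0.448 and 0.701 CPM in young libraries. Aged 2, the library with counts in the most genes, was the highest, and the other aged libraries lay among or below the young ones. The log2 difference of 0.46 ± 0.65 SE (interval -1.07 to 2.00, adjusted p = 0.667) turned to -0.48 without aged 2. An antisense gene, Igf2os, overlaps it with at most 3 counts in any library.

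As a share of the counts of H19 and Igf2 together, H19 made up 0%, 12.1% and 47.6% in aged 1, 2 and 3, against 62.5%, 71.9% and 59.0% in young 4, 5 and 6. The groups did not overlap, but aged 3 came near the young libraries. Exact Clopper-Pearson 95% intervals, which cover counting error only, were 25.7% to 70.2% in aged 3 and 42.1% to 74.4% in young 6, so these libraries were not distinguishable at this depth. The interval of aged 1 reached 45.9%, since its share rested on 6 counts.

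Igf2r and Grb10 limit growth signals at the cell surface. Igf2r encodes the receptor that takes up Igf2 for breakdown in lysosomes (chromosome 17, 12682406 to 12769706, minus strand). It was at 19.3, 25.6 and 28.0 CPM in aged 1, 2 and 3, against 32.5, 15.6 and 14.1 CPM in young 4, 5 and 6. Young 4 was the highest library of all, and the other young libraries were the lowest. The log2 difference was 0.23 ± 0.35 SE (interval -0.59 to 1.06, adjusted p = 0.688). Airn, the noncoding gene of the paternal copy that overlaps Igf2r on the other strand, was at 2.88, 6.55 and 7.89 CPM in aged 1, 2 and 3, against 3.34, 2.09 and 3.11 CPM in young 4, 5 and 6 (adjusted p = 0.188). Aged 1 lay among the young libraries. The log2 ratio of Airn to Igf2r counts averaged -2.18 ± 0.49 in aged and -2.79 ± 0.56 in young libraries and overlapped (SD, n = 3 each). Strand is not kept by the library kit, and reads over bases that Igf2r and Airn share are uncertain.

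Grb10 encodes an adaptor that binds the insulin and Igf1 receptors and dampens their signal (chromosome 11, 11930499 to 12037420, minus strand). It was at 221, 192 and 248 CPM in aged 1, 2 and 3, against 98.3, 185 and 198 CPM in young 4, 5 and 6. Young 6 lay above aged 2, and young 4 was far below the other libraries. The log2 difference was 0.46 ± 0.28 SE (interval -0.20 to 1.12, adjusted p = 0.338). The log2 ratio of Ndn to Grb10 counts was -1.92, -1.79 and -1.72 in aged 1, 2 and 3, against -2.85, -2.67 and -2.84 in young 4, 5 and 6. Young 4 thus was like the other young libraries by this ratio. The difference was 0.97, and 0.93 to 1.03 with single libraries left out.

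Peg3 and Plagl1 encode zinc finger proteins of growth control. Peg3 (chromosome 7, 6705960 to 6730419, minus strand) was at 0.815, 1.03 and 2.18 CPM in aged 1, 2 and 3, against 0, 0.399 and 1.10 CPM in young 4, 5 and 6. Young 6 lay above aged 1 and aged 2, and the 0 of young 4 allows up to 0.239 CPM. The log2 difference was 1.31 ± 0.86 SE (interval -0.72 to 3.33, adjusted p = 0.364). It was 0.77 without aged 3 and 2.53 without young 6. Plagl1, known in mouse as a regulator of other imprinted genes (chromosome 10, 13060504 to 13131695, plus strand), had 7, 7 and 4 counts in aged 1, 2 and 3, against 0, 15 and 25 counts in young 4, 5 and 6. Young 4 was lower and the other young libraries higher than every aged one. With no filter on low counts its log2 difference was -1.12 (adjusted p = 0.521), and without young 4 it was -1.66 (adjusted p = 0.0954).

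**Figure D3:**
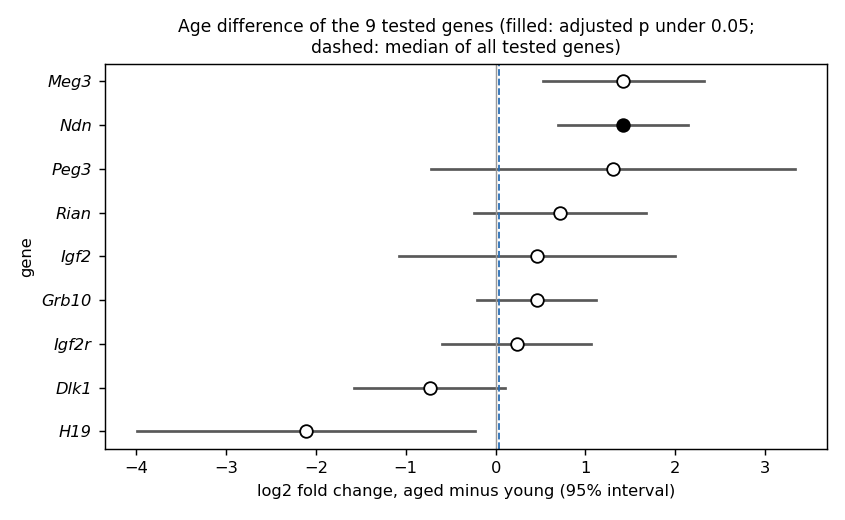
Log2 fold change (x axis, aged minus young) of the 9 tested genes with 95% intervals; the dashed line is the median of all tested genes, 0.04. The filled symbol, Ndn, is the gene with an adjusted p under 0.05; the intervals of Meg3 and H19 also leave out 0 before adjustment.

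Levels can be compared between genes per kb of the length that the deposited table gives. In aged libraries Ndn (38.2 ± 6.54 CPM per kb, SD, n = 3) and Grb10 (38.0 ± 4.81) led and overlapped in range. In young libraries Grb10 averaged 27.7 ± 9.35 and Ndn 14.3 ± 5.23 CPM per kb, and their ranges overlapped slightly, at 17.0 for the lowest Grb10 and 17.7 for the highest Ndn. Igf2r followed at 2.74 in aged and 2.33 in young libraries. Its aged range, 2.17 to 3.15, overlapped that of Meg3, 0.992 to 2.39, and its young range did not overlap that of Dlk1. Next were Meg3 at 1.55 and Dlk1 at 0.602 CPM per kb in aged libraries, whose ranges did not overlap, and in young libraries Dlk1 at 1.01 and Meg3 at 0.578, whose ranges did not overlap either. Per kb, the order of Meg3 and Dlk1 was thus opposite in the aged and young groups. This rests on the division by length, 15.24 kb for Meg3 and 4.805 kb for Dlk1. In counts, Meg3 was above Dlk1 in every aged and every young library. Rian, Peg3, Igf2, H19 and Plagl1 had means of at most 0.431 CPM per kb in both groups, and in aged libraries each overlapped its neighbour in this order.

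Of 64 other imprinted genes listed, 40 were tested by edgeR, 1 rose and 0 fell, where 4.26% of all tested genes rose and 1.5% fell. Before adjustment, 6 with p under 0.05 were higher and 3 lower, where 13.9% and 11.1% of all tested genes were. DESeq2 called 4 higher and 1 lower, where it called 7.58% and 5.36% of genes with an adjusted p. These other imprinted genes did not stand out by such counts. Their median log2 fold change was 0.09. Asb4, a maternally read gene of a ubiquitin ligase subunit, rose 4.50-fold: it was at 6.42, 8.88 and 12.4 CPM in aged 1, 2 and 3, against 0.954, 2.34 and 2.72 CPM in young 4, 5 and 6 (adjusted p = 0.0382 by edgeR). The groups did not overlap. Its call was kept without young 4 (3.59-fold) and lost with any other library left out or with young 4 and aged 2 both left out (adjusted p = 0.0646). The most abundant genes of the list were Cd81, a tetraspanin gene, at 917 ± 175 in aged and 834 ± 17.2 CPM in young cells (SD, n = 3 each; adjusted p = 0.684), and Kcnq1ot1, a long noncoding RNA, with a log2 difference of -0.17 (adjusted p = 0.714).

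Of these other genes, 21 lay within 500 kb of the 10, and 13 of them had too few counts to be tested. The 8 tested were Ascl2, Cd81, Tssc4, Airn, Slc22a3, Mkrn3, Peg12 and Ddc. Of these, 0 were called by edgeR, which called 5.76% of all tested genes, or by DESeq2, which called 12.9% of genes with an adjusted p. By edgeR 1, Airn, had an unadjusted p under 0.05, where 25.1% of all tested genes did. Limma-voom with quality weights called 4, where it called 30.5% of all tested genes. Mkrn3, a ring finger gene beside Ndn that is also paternally read, was at 8.64 ± 1.19 CPM in aged and at 5.38 ± 1.67 CPM in young libraries (SD, n = 3 each; adjusted p = 0.211), without overlap between groups. Peg12 and Magel2, also beside Ndn, were at 93.2 ± 31.2 and 0.138 ± 0.238 CPM in aged libraries, against 127 ± 68.7 and 0.0676 ± 0.0821 CPM in young libraries.

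**Figure D4:**
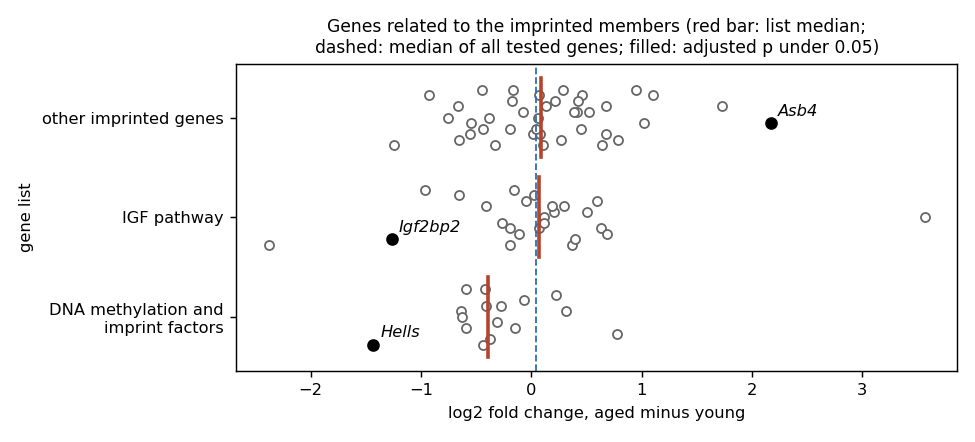
Log2 fold change (x axis, aged minus young) of each tested gene in 3 lists of related genes (rows); the red bar is the list's median and the dashed line that of all tested genes. Filled symbols passed an adjusted p of 0.05: Asb4 at 2.17, Igf2bp2 at -1.27 and Hells at -1.44. The open symbol farthest right is Igfbp7 (adjusted p = 0.0532 by edgeR), which was at 0 counts in young 4 and young 5.

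In the IGF pathway, which carries the signal of Igf2, 1 of 25 tested genes fell and 0 rose by edgeR. Over all tested genes 1.5% fell and 4.26% rose. Before adjustment, 3 were higher and 2 lower at p under 0.05, where 13.9% and 11.1% of all tested genes were. DESeq2 called 1 higher and 2 lower, where it called 7.58% and 5.36% of genes with an adjusted p. The median log2 fold change of the IGF pathway genes was 0.07. Igf2bp2, which encodes a protein that binds Igf2 and other mRNAs, fell 2.40-fold: it was at 9.35, 7.43 and 6.78 CPM in aged 1, 2 and 3, against 13.8, 19.3 and 23.5 CPM in young 4, 5 and 6 (adjusted p = 0.0422 by edgeR). The groups did not overlap. The call was kept without young 4 (adjusted p = 0.0203) and without both young 4 and aged 2 (0.0473), and lost with any other library left out. Pik3r1, a PI3K subunit gene, averaged 303 CPM in aged cells, against 195 CPM in young cells (adjusted p = 0.137), and Rps6kb1, a kinase gene below mTOR, averaged 207 CPM in aged cells, against 238 CPM in young cells (adjusted p = 0.573). Chosen after their values were seen, the ligand gene Igf1 was at 1.44, 5.62 and 6.27 CPM in aged 1, 2 and 3, against 36.6, 13.9 and 19.2 CPM in young 4, 5 and 6 (adjusted p = 0.0643), and the receptor gene Igf1r averaged 164 CPM in aged cells, against 133 CPM in young cells (adjusted p = 0.268).

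Among genes that set, keep or remove DNA methylation, with factors known to guard imprints, 13 of 16 tested had a negative log2 fold change (81.2%, where 47.3% of all tested genes did) and the median was -0.39. Members with opposite roles, as Dnmt3a, a methyltransferase gene, and Tet1, a gene of methyl group removal, were both among the negative ones. Of the 16, 1 fell and 0 rose by edgeR, 5 were lower and 0 higher at p under 0.05 before adjustment, and DESeq2 called 3 lower. Over all tested genes, edgeR called 1.5% lower and 4.26% higher, and before adjustment 11.1% were lower and 13.9% higher. DESeq2 called 5.36% of genes with an adjusted p lower. Hells, a chromatin remodeller that helps DNA methylation and is also abundant in dividing cells, fell 2.70-fold: it was at 75.4, 90.2 and 58.0 CPM in aged 1, 2 and 3, against 297, 163 and 145 CPM in young 4, 5 and 6 (adjusted p = 0.0476 by edgeR). The groups did not overlap, and young 4 was the highest. The call was kept without young 4 (adjusted p = 0.0343) and without both young 4 and aged 2 (0.0350), and lost with any other library left out. Dnmt1, the maintenance methyltransferase gene, averaged 146 CPM in aged cells, against 193 CPM in young cells (adjusted p = 0.515). Without young 4, 4 genes of this list were called, 3 of them lower, where 1029 of all 13779 genes tested were called, 350 of them lower.

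**Figure D5:**
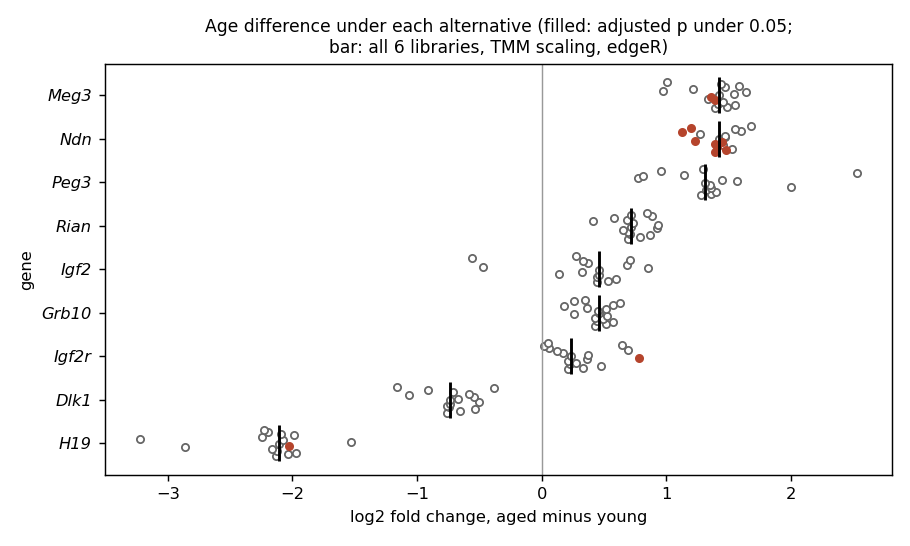
Log2 fold change (x axis, aged minus young) of the 9 tested genes under each alternative processing (small circles, filled where the adjusted p was under 0.05), beside the value from all 6 libraries (bar). Ndn is filled under 8 of 17 alternatives, Meg3 under 2, H19 and Igf2r under 1 each, and Igf2 crosses 0 under 2.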

How the data were processed

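Total RNA was turned into SMART-Seq v4 libraries, a kit that keeps no strand, and read in single reads of 51 cycles, per the labels' protocols. The submitters' processing notes name Trimmomatic, HTSeq 0.11.1, STAR 2.6.0, edgeR and build mm10; neither annotation nor counting mode is given in the sources used here. Whole-number counts per gene, with no scaling, were deposited by the authors with a length in kb. Coordinates were taken as 1-based, because 14475 of 23349 genes matched by symbol had the same start as in RefSeq and only 17 began 1 base lower.

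Groups came from sample titles. All 6 libraries entered 1 fit with age as the only term: edgeR 4.0.16 in R 4.3.3, filterByExpr, TMM, glmQLFit and glmQLFTest, Benjamini-Hochberg over 13413 genes (99.92% of counts), threshold 0.05. SEs are the log2 fold change over the square root of F, and 95% intervals use the fit's degrees of freedom. CPM carry no pseudocount; 3 counts, the limit a 0 allows, are 0.132 to 0.239 CPM and reflect counting error alone, because PCR copies of a molecule are not independent. The fit was tested on simulated data.

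The 10 genes, the lists and the tests were chosen with earlier results of these data known. Named from each list were called genes (at most 8), the 2 most abundant where fewer than 2 were called, and listed genes within 500 kb of the 10. Alternatives were RLE, upper-quartile or no composition scaling, other filters on low counts, DESeq2 1.42.0, limma-voom (limma 3.58.1) with and without quality weights, robust estimation, each library left out, young 4 and aged 2 both left out, and trends by GC content (GENCODE M21 transcripts) and length taken out.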

Additional observations from a re-analysis of the deposited data

How the results depend on the processing

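All 9 tested genes but Igf2 kept their direction under every alternative in which they were tested (at 5 CPM these were 4 genes, Ndn, Meg3, Igf2r and Grb10); Igf2 was at -0.48 without aged 2 (range over single libraries left out -0.48 to 0.85) and at -0.56 with young 4 and aged 2 both left out. Without composition scaling, which moved the median log2 fold change of all genes to 0.20 against 0.04, and at 5 CPM or more in 3 libraries, with robust estimation or after removal of the GC and length trend, 0 of the 10 genes were called. DESeq2 called 2 and limma-voom with quality weights 4 (Ndn, Meg3 and Igf2r higher, H19 lower). Over the whole table, DESeq2 called 12.9% of genes with an adjusted p, and quality weights 30.5% of all tested genes. These shares also apply to the counts of the other lists below. With single libraries left out, 0 to 1 was called. Of the other imprinted genes, 0 were called without composition scaling or with young 4 and aged 2 both left out, 5 by DESeq2, 11 by limma-voom with quality weights and 0 to 1 with single libraries left out. Of the IGF pathway, 2 were called with upper-quartile scaling, 2 with no filter on low counts, 2 by limma-voom, 3 by DESeq2, 3 after removal of the GC and length trend, 6 with quality weights, 0 without composition scaling or at 5 CPM, and 0 to 1 with single libraries left out. Of the DNA methylation and imprint factors, 0 were called at 5 CPM or with robust estimation, 2 with young 4 and aged 2 both left out, 2 after removal of the GC and length trend, 3 by DESeq2, 8 with quality weights and 0 to 4 with single libraries left out. Over all genes, 772 were called (571 higher, 201 lower), 443 at 5 CPM, 1211 after removal of the GC and length trend, 1893 by DESeq2 (58.6% higher, against 74.0%), 4094 with quality weights and 74 to 1029 with single libraries left out. The ratios within libraries kept their direction with each library left out. The cause of these differences was not tested. No paired analysis was possible because the labels number aged samples 1 to 3 and young samples 4 to 6, with no number shared.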
